A study of Bos taurus with 56 samples.

Results

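The genes described here are those of MHC class II antigen presentation in the epithelium of the bovine oviduct. The list held 9 symbols, and 5 of them (BLA-DQB, BOLA-DMA, BOLA-DMB, CD74 and CIITA) had a row among the 31903 genes of the count table. BOLA-DRA, BOLA-DRB3, BOLA-DQA1 and BOLA-DOB were not analysed here. The list was drawn up with earlier results of these data known, in which BLA-DQB was singled out in lactating cows, so that differences between metabolic groups are given below as a description.

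RNA-seq was made of epithelial cells scraped from the oviduct of Holstein females slaughtered on Day 3 after a synchronized estrus. The 5 heifers were nulliparous. The 5 post-partum non-lactating cows were dried off at calving and never milked, the 4 post-partum lactating cows were milked, and both groups were sampled at about 60 days post-partum. From each of the 14 animals the ampulla and the isthmus were taken on the side ipsilateral and on the side contralateral to the corpus luteum (CL), which gave 56 libraries in 12 conditions. All animals received the same synchronization treatment, and both cow groups differed from heifers in parity together with the post-partum state, which cannot be told apart. Lactating cows differed from heifers in lactation as well.

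Animals are named here by a letter within their group, from the animal number carried by each column. The column numbers of 4 ipsilateral ampulla libraries did not match the rest of that animal's libraries. A lactating library carried the number of non-lactating cow C, a non-lactating library carried that of lactating cow B, and the profiles of non-lactating cow B and heifer B were crossed between their numbers. Over the 200 genes that differed most between animals, these 4 correlated at r = -0.28 to 0.10 with the other libraries of their number and at 0.85 to 0.89 with those of another animal. Each of the other 52 libraries correlated best with its own animal (r of at least 0.54, as a description, since these libraries chose the genes). The 4 libraries were kept in the group that their column names, and they are called mismatched below.

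Class II molecules are dimers of an alpha and a beta chain that present peptides from the endocytic route to CD4 T cells. BLA-DQB is a DQ beta chain gene, listed in RefSeq as a synonym of BOLA-DQB1. CD74 is the invariant chain, which fills the groove of new class II molecules and guides them to endosomes, and BOLA-DMA and BOLA-DMB encode the DM dimer, which exchanges the remnant of CD74 for peptide. CIITA is the transactivator without which class II genes are scarcely transcribed. It is constitutive in dendritic cells, macrophages and B cells, and interferon gamma can induce it, and class II with it, in epithelium.

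The libraries held 1901454 to 6836850 counts on genes. Values are CPM, that is, counts scaled to the size of the library, after TMM normalization, and SDs, where given, are between animals. Class II genes of the DQ group are near copies of each other, and alignments to several places, which were not counted on genes, made up 37.4 to 61.3% of the alignments of the undoubted libraries, so that the split of reads between BLA-DQB and other DQ genes is uncertain. The cell type of origin was checked on markers. The epithelial genes EPCAM (164 to 518 CPM), KRT8 (170.0 to 500.1 CPM) and FOXJ1 (150 to 441 CPM) were present in every library. The leukocyte gene PTPRC (CD45) was present in every library as well, at 3.09 to 83.8 CPM. The B cell genes MS4A1 and CD79B were at 0 in 48 and 53 of the 56 libraries. In scraped tissue, more cells of a type and more RNA per cell cannot be told apart.

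In lactating cows A and C all 5 genes were high in all 4 tissues. Lactating cows B and D lay near the heifers for every gene but BLA-DQB. That gene was high in cow B, and in cow D it lay above all heifer libraries in the ipsilateral isthmus (15.1 against at most 10.2 CPM) and ipsilateral ampulla (20.6 against at most 15.9 CPM). Among the non-lactating cows, cow D was high for CD74, CIITA and BOLA-DMB, and its BLA-DQB lay within the heifer range. The plot of CPM by animal shows this animal by animal.

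**Figure D1:**
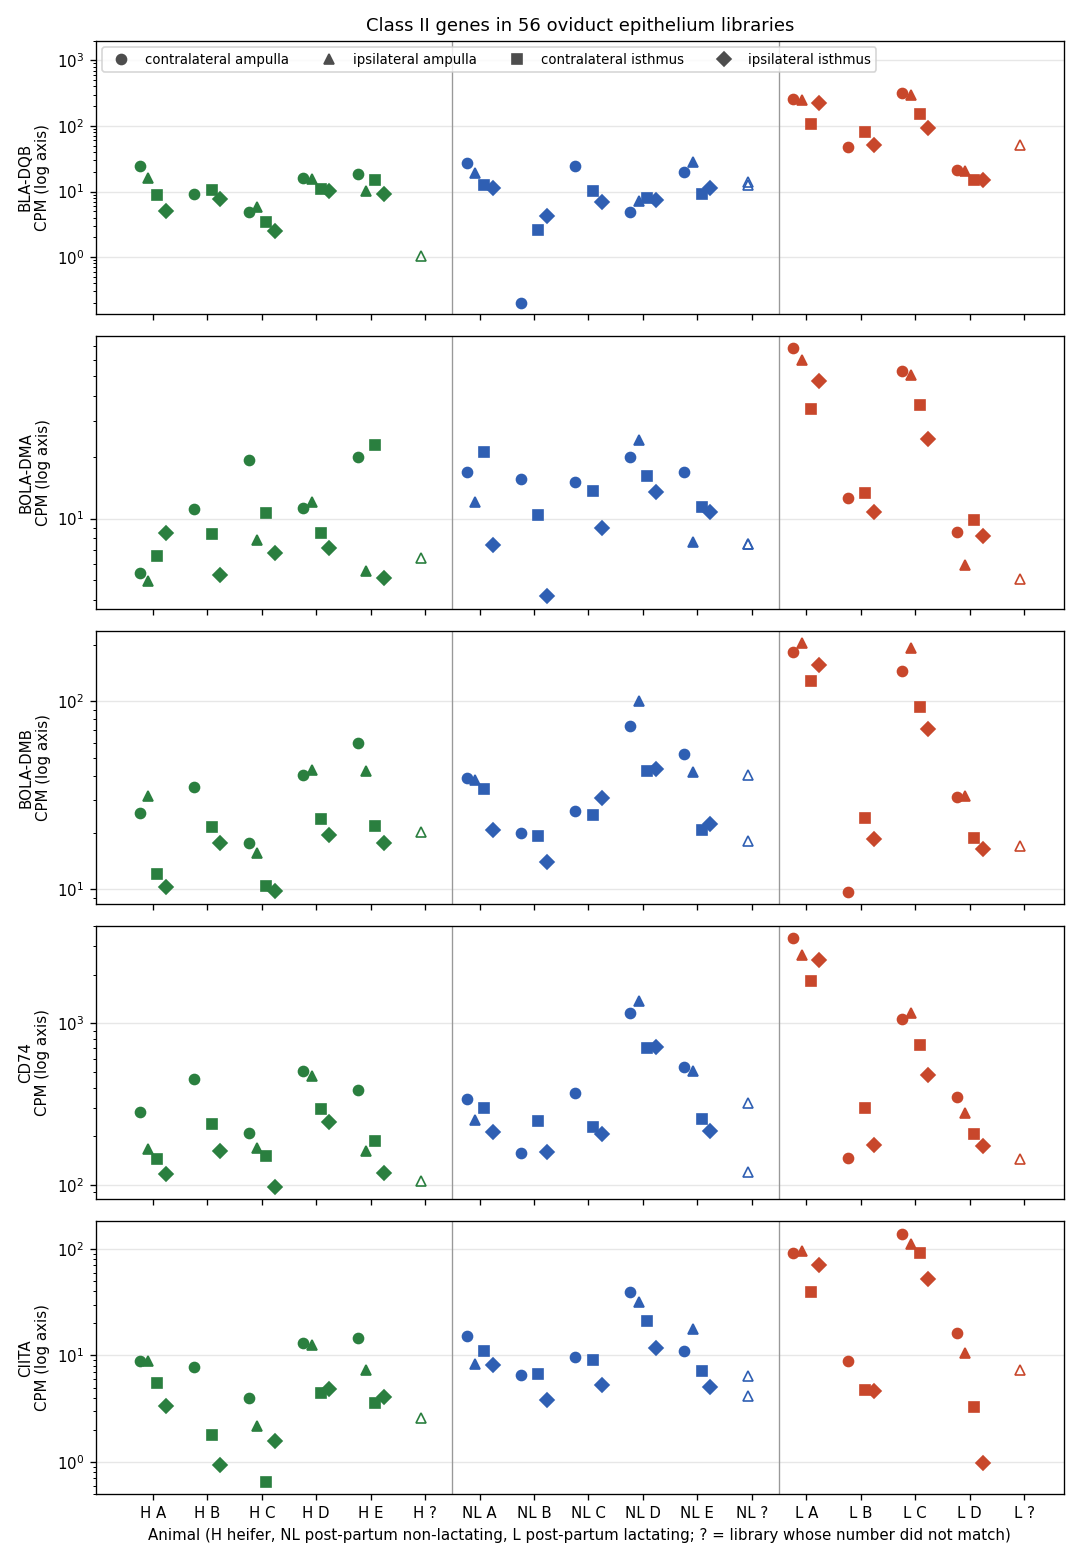
CPM (log axis) of the 5 class II genes in each library, by animal (H heifers, NL post-partum non-lactating cows, L post-partum lactating cows); marker shapes give the tissue, and open markers under "?" are the 4 mismatched libraries. The 8 libraries of lactating cows A and C lie above all heifer libraries for CIITA (39.1 to 140 CPM against 0.65 to 14.5 CPM). Those of cow D do not, except in the contralateral ampulla, where cow D lies just above them.

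CIITA, the transactivator, was measured at 8.93, 7.84, 3.98, 13.1 and 14.5 CPM in the contralateral ampulla of heifers A to E. Non-lactating cows had, in the same order, 15.3, 6.54, 9.65, 39.4 and 11.1 CPM there, and the lactating cows A to D 91.0, 8.84, 139.6 and 16.4 CPM. Lactating cows A and C had the highest values of this tissue, followed by non-lactating cow D, and cow B lay inside the heifer range. In the contralateral isthmus CIITA was at 5.53, 1.78, 0.65, 4.43 and 3.60 CPM in heifers A to E. The values of the non-lactating group were 10.9, 6.73, 9.01, 20.9 and 7.13 CPM, and lactating cows A to D 39.1, 4.77, 91.1 and 3.29 CPM. Here the non-lactating cows did not overlap with the heifers, whereas the lactating cows did, since cows B and D were at heifer level. The ipsilateral isthmus gave 3.34, 0.95, 1.56, 4.87 and 4.12 CPM in heifers, 8.12, 3.79, 5.34, 11.7 and 5.10 CPM in non-lactating cows, and 70.6, 4.65, 52.5 and 0.98 CPM in lactating cows A to D. Cow D, with 6 counts, lay just above heifer B, the lowest of the 14 animals there. In the ipsilateral ampulla the heifers A, C, D and E had 8.94, 2.17, 12.5 and 7.24 CPM, the non-lactating cows A, D and E 8.34, 32.1 and 17.9 CPM, and the lactating cows A, C and D 96.8, 110.6 and 10.7 CPM. The mismatched libraries there had 2.57 CPM (heifer), 6.36 and 4.14 CPM (non-lactating) and 7.33 CPM (lactating). In all 4 tissues cows A and C were the high animals of the lactating group.

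BLA-DQB, the DQ beta chain, set cow B apart as well. Contralateral ampulla libraries gave 24.1, 9.01, 4.86, 16.1 and 18.7 CPM in heifers A to E, while 26.8, 0.198, 24.4, 4.95 and 19.5 CPM were counted in the non-lactating cows and 254, 48.4, 315 and 21.3 CPM in lactating cows A to D. The value of non-lactating cow B was a single count. Only cow D of the lactating group overlapped with the other groups. In the contralateral isthmus the values were 8.99, 10.7, 3.47, 11.1 and 15.1 CPM in heifers, 12.5, 2.59, 10.3, 7.95 and 9.03 CPM in non-lactating cows and 107.6, 82.0, 152.8 and 14.8 CPM in lactating cows. Lactating cow D lay above every non-lactating cow and just under heifer E. The ipsilateral isthmus held 5.13, 7.76, 2.54, 10.2 and 9.22 CPM in heifers, 11.4, 4.16, 6.82, 7.52 and 11.3 CPM in non-lactating cows and 223, 50.5, 93.6 and 15.1 CPM in lactating cows, so that the lactating cows overlapped with neither group. In the ipsilateral ampulla the matched libraries gave 15.9, 5.87, 15.8 and 10.1 CPM in heifers A, C, D and E, 19.1, 7.28 and 28.1 CPM in non-lactating cows A, D and E, and 250.0, 299.7 and 20.6 CPM in lactating cows A, C and D. Lactating cow D lay between non-lactating cows A and E here. The mismatched lactating library had 51.5 CPM, near the 48.4 to 82.0 CPM of lactating cow B, whose libraries it resembled. The mismatched heifer library had 1.03 CPM, where the other libraries numbered heifer B had 7.76 to 10.7 CPM and those of non-lactating cow B, which it resembled, 0.198 to 4.16 CPM. The 2 mismatched non-lactating libraries had 12.5 and 14.01 CPM.

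The invariant chain CD74 showed a wide gap between lactating cow A and all others. It was measured in the contralateral ampulla at 285, 453, 209, 506 and 386 CPM in heifers A to E. It was at 342, 158, 368, 1154 and 536 CPM in the non-lactating group and at 3363, 147, 1059 and 349 CPM in lactating cows A to D. Lactating cow B had the lowest value of this tissue and cow A the highest. In the contralateral isthmus the values were 145, 239.5, 149.8, 294 and 187 CPM in heifers, 297.5, 248, 227, 707 and 257 CPM in non-lactating cows, and 1830, 301, 730.4 and 205 CPM in lactating cows. The ipsilateral isthmus held 117, 162, 97.3, 243.5 and 117.5 CPM in heifers, 211, 159, 205, 715 and 216.5 CPM in non-lactating cows and 2458, 175, 482 and 175 CPM in lactating cows. In both isthmus tissues non-lactating cow D reached or passed 700 CPM, near or above lactating cow C. The matched ipsilateral ampulla libraries had 168, 169, 473 and 162 CPM in heifers A, C, D and E, 252.5, 1379 and 507.5 CPM in non-lactating cows A, D and E, and 2669, 1156 and 279.7 CPM in lactating cows A, C and D. The mismatched libraries had 105 CPM (heifer), 321 and 120.1 CPM (non-lactating) and 145 CPM (lactating), all within the range of the heifers of all tissues. The metabolic groups overlapped for CD74 in every tissue.

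The 2 DM genes followed CD74 with a smaller range. BOLA-DMB was at 127 to 203 CPM in the 4 libraries of lactating cow A and at 71.3 to 192.5 CPM in those of cow C. Heifer libraries held 9.75 to 59.9 CPM, and lactating cow D 16.4 to 31.3 CPM. The lowest of all 56 values, 9.73 CPM, was the contralateral ampulla of lactating cow B, whose isthmus libraries had 23.9 and 18.6 CPM. BOLA-DMA was at 34.5 to 68.2 CPM in cow A and 24.6 to 52.9 CPM in cow C, against 4.97 to 22.8 CPM in heifers and 4.16 to 24.4 CPM in the non-lactating group. Non-lactating cow D had 42.6 to 99.7 CPM of BOLA-DMB and 13.6 to 24.4 CPM of BOLA-DMA.

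To separate the spread between animals from the difference between groups, the sum of squares of log2 CPM was split for each gene over the 14 animals and the 3 tissues without mismatched libraries. For CD74, animals within a group took 63.5% of the sum of squares, metabolic group 20.6%, tissue 9.80% and the residual 4.64%. BOLA-DMB was split in a similar way, with 61.5% for animals and 21.4% for group. CIITA had 51.9% for animals and 28.4% for group, and BOLA-DMA 45.6% and 26.0%. For these 4 genes the animals, with more degrees of freedom, took a larger share than the groups. BLA-DQB had the opposite order, with 57.2% for group and 32.6% for animals. Over the 15796 genes with a mean log2 CPM of at least 0, the medians were 24.3% for animals, 4.43% for group, 20.6% for tissue and 35.2% for the residual, and the animal share exceeded 43.1% in the highest 10% of genes. Of the members 4 passed that level (BOLA-DMA, BOLA-DMB, CD74 and CIITA). Without lactating cow D, however, the animal share was 28.9% (group 41.9%) for BOLA-DMA and 38.7% (group 46.1%) for CIITA, and without lactating cow B it was 38.7% for BOLA-DMA and 42.5% for CIITA. Per degree of freedom, the mean square of group was 9.64 times that of animals for BLA-DQB and 1.78 to 3.13 times for the other 4 genes, beside a median of 1.05 times over all genes. Without lactating cow A this ratio was 0.97 for CD74 and 0.92 for BOLA-DMB, and without cow C it was 0.97 for BOLA-DMB. The SD between animals of a group, on the log2 scale, was 1.11 for BLA-DQB, 1.30 for CIITA, 1.03 for CD74, 0.92 for BOLA-DMB and 0.62 for BOLA-DMA. Animals kept their level across tissues, since the residual SD was 0.35 to 0.72. BLA-DQB was selected on its group difference, so its group share is no evidence for it.

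**Figure D2:**
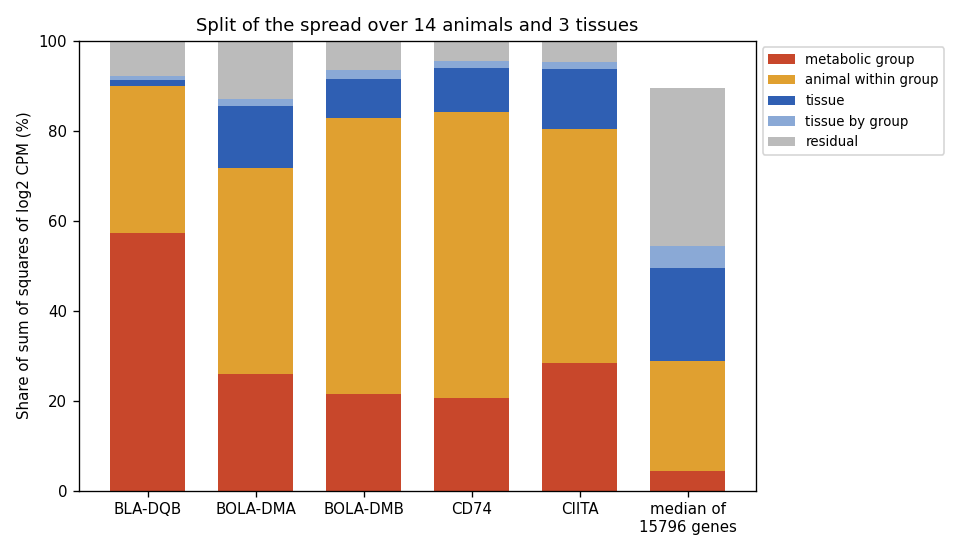
Share (%) of the sum of squares of log2 CPM taken by metabolic group, animal within group, tissue, tissue by group and residual, for the 5 class II genes and as medians over 15796 genes (the medians need not add up to 100%), from 14 animals and 3 tissues. Animals take more than group for BOLA-DMA, BOLA-DMB, CD74 and CIITA (45.6 to 63.5%), and group more than animals for BLA-DQB (57.2%).

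The share of BLA-DQB between animals was most sensitive to lactating cow D, without which it was 20.2% and that of group 69.7%. Without lactating cow C these were 39.4% and 48.3%.

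Lactating cows were then set beside heifers in each tissue. All 5 genes had higher fitted values in lactating cows in all 4 tissues. In the ipsilateral isthmus BLA-DQB was at 95.6 ± 90.9 CPM (SD, n = 4) in lactating cows, and heifers had 6.96 ± 3.12 CPM (SD, n = 5). Its log2 fold change was 3.81 ± 0.66 (SE). CIITA was at 32.2 ± 34.7 against 2.97 ± 1.67 CPM (3.48 ± 0.95). CD74 was at 822.5 ± 1100.0 against 147.5 ± 58.7 CPM, with a log2 fold change of 2.53 ± 0.71. In each of these genes the SD in lactating cows was about as large as their mean. BOLA-DMB (2.17 ± 0.59) and BOLA-DMA (1.82 ± 0.46) were lower in log2 fold change. Over the 4 tissues the log2 fold change ranged from 3.19 to 3.99 for BLA-DQB, 2.73 to 3.48 for CIITA, 1.76 to 2.53 for CD74, 1.38 to 2.17 for BOLA-DMB and 1.03 to 2.06 for BOLA-DMA. These comparisons share animals across tissues. Comparisons of metabolic groups in the ipsilateral ampulla, here and below, include the mismatched libraries unless stated.

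By edgeR's quasi-likelihood F test, with Benjamini-Hochberg adjustment over all genes, 0 of the 5 genes passed an adjusted p of 0.05 in this contrast in any tissue. The share of all genes called was also 0% in each. At an unadjusted p under 0.05 all 5 genes passed in the ipsilateral ampulla, ipsilateral isthmus and contralateral isthmus, and 4 in the contralateral ampulla. Of all genes, 7.15, 10.4, 10.7 and 4.73% did in these 4 tissues. DESeq2's Wald test called BLA-DQB in the ipsilateral ampulla and contralateral isthmus, BLA-DQB and BOLA-DMA in the ipsilateral isthmus, and none in the contralateral ampulla. It called 0.121, 0.531, 1.08 and 0.00453% of all genes there. Since BLA-DQB was singled out in this contrast, these counts are a description. In the ipsilateral ampulla and isthmus, BLA-DQB of lactating cows did not overlap with that of heifers, and there 1.01% and 1.18% of all genes had every lactating library above every heifer library.

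The fold changes of CD74 and of both DM genes rested on lactating cow A to a large degree. Without this cow, the log2 fold change of CD74 was 0.93 ± 0.37 in the ipsilateral isthmus and 0.51 ± 0.49 in the contralateral ampulla. BOLA-DMB was at 1.26 ± 0.45 and BOLA-DMA at 1.16 ± 0.36 in the ipsilateral isthmus without cow A. In the contralateral isthmus, BOLA-DMA was lowest without cow C instead, at 0.75 ± 0.47 against 1.03 with it. For BLA-DQB the lowest value when any 1 library was left out was 2.80, in the contralateral isthmus without cow C. CIITA was lowest in the contralateral ampulla, at 2.01 without cow C, and in the contralateral isthmus it was at 2.31 without that cow, against 3.44 with it.

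**Figure D3:**
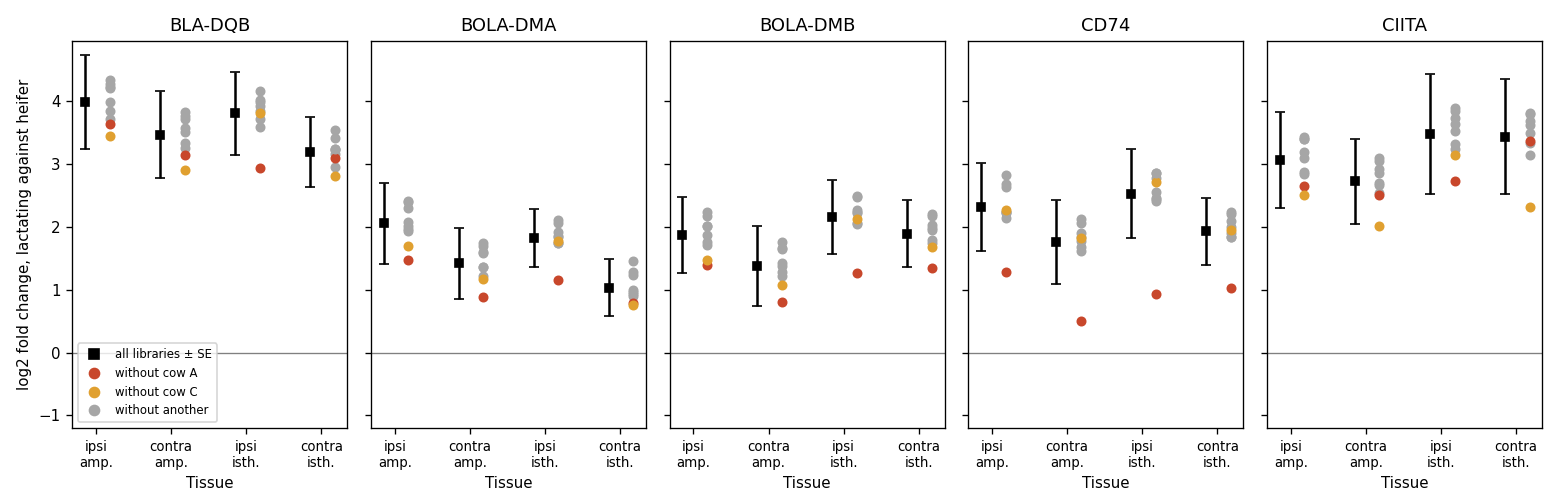
Log2 fold change of lactating cows against heifers in the 4 tissues, for each class II gene; black squares with bars are the fit on all libraries ± SE, circles the fits with 1 library left out, coloured where that library was from lactating cow A or C. CD74 falls furthest without cow A, to 0.51 in the contralateral ampulla, and BLA-DQB stays at 2.80 or more.

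Lactating cows were also set beside non-lactating cows. BLA-DQB had log2 fold changes of 3.27 ± 0.65 and 3.42 ± 0.79 in the ipsilateral and contralateral ampulla and of 3.58 ± 0.63 and 3.33 ± 0.54 in the ipsilateral and contralateral isthmus. The groups did not overlap in either isthmus tissue, where 0.781% (ipsilateral) and 0.403% (contralateral) of all genes had every lactating library above every non-lactating one. The other genes had smaller values, from 0.68 ± 0.38 for BOLA-DMA in the contralateral isthmus to 2.25 ± 0.86 for CIITA in the ipsilateral isthmus. For CD74 the ipsilateral isthmus gave 1.48 ± 0.75, and -0.10 ± 0.51 without lactating cow A. In the other tissues CD74 was at 1.05 to 1.26, and at 0.019 to 0.26 without cow A. CIITA in the contralateral isthmus was at 1.66 ± 0.78, and at 0.53 ± 0.70 without cow C. By edgeR's test 0 of 5 genes passed in each tissue, beside 0% of all genes. With no adjustment, a p under 0.05 was reached by 2 members in the ipsilateral ampulla (3.57% of all genes), 3 in the contralateral ampulla (5.06%), 4 in the ipsilateral isthmus (6.26%) and 2 in the contralateral isthmus (3.94%). DESeq2 called BLA-DQB in the ipsilateral isthmus (0.111% of all genes) and in the contralateral isthmus (0.0086%) and none in the ampulla.

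Non-lactating cows and heifers were closer. BLA-DQB had log2 fold changes of -0.17 to 0.72 over the 4 tissues, with the highest in the ipsilateral ampulla. There the lowest heifer value, 1.03 CPM, was that of the mismatched library, which resembled non-lactating cow B. CIITA was higher in non-lactating cows in all 4 tissues, by 0.78 to 1.77. Its largest value was in the contralateral isthmus, where the groups did not overlap (1.77 ± 0.47, with 0.777% of all genes non-overlapping in that direction). Without non-lactating cow D this value was 1.40 ± 0.45. In the ampulla CIITA was at 0.15 ± 0.39 (contralateral) and 0.44 ± 0.51 (ipsilateral) without that cow, against 0.78 and 1.01 with it. CD74 had log2 fold changes of 0.50 to 1.26 and, without cow D, of -0.047 to 0.48. Again 0 of 5 genes passed edgeR's adjusted test in any tissue, beside 0.0073% of all genes in the ipsilateral isthmus and 0% elsewhere. Unadjusted, 1 gene passed in the ipsilateral ampulla (3.63% of all genes), 0 in the contralateral ampulla (4.35%), 3 in the ipsilateral isthmus (11.8%) and 3 in the contralateral isthmus (9.18%), and DESeq2 called none.

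The level of leukocyte markers moved with class II in some of these animals and not in others. Lactating cow A, with the highest CD74, also had the highest PTPRC (53.3 to 83.8 CPM in 4 libraries, against 3.09 to 16.1 CPM in heifers). Its 4 leukocyte markers (PTPRC, CD53, LCP1 and CORO1A) summed to 203 to 252.5 CPM in the 3 tissues without mismatched libraries, its 7 macrophage and dendritic cell markers with a row to 66.9 to 154 CPM, and its 6 T cell markers to 57.5 to 81.0 CPM. In the 20 heifer libraries these sums were 54.8 to 158, 15.5 to 32.0 and 5.40 to 20.7 CPM. Lactating cow C, with the highest CIITA, had 7.27 to 15.1 CPM of PTPRC, and its sums of 54.8 to 92.4, 17.1 to 22.3 and 6.63 to 10.8 CPM lay within the heifer ranges. Class II was thus high in cow C at the leukocyte marker level of heifers. Over 3 tissues, the 3 endothelial markers with a row summed to 23.4 to 52.9 CPM in cow C. The 20 heifer libraries had 10.5 to 34.9 CPM. The mean sum of cow C, 36.5 CPM, was the highest of the 14 animals. The endothelial sum is weighted to TEK, with a median of 12.7 CPM against 2.97 CPM for PECAM1 and 4.37 CPM for VWF. As a mean over 3 tissues, TEK reached 28.99 CPM in cow C, against 10.96 CPM on average in heifers. By the same means, PECAM1 and VWF were at most 4.74 and 5.96 CPM in lactating cows. In heifers they were at most 4.29 and 6.40 CPM. In lactating cow D, macrophage and dendritic cell markers were at 34.8 to 44.9 CPM, above all heifer libraries. BOLA-DMA, BOLA-DMB, CD74 and CIITA lay near heifer level in this cow. Its BLA-DQB was above every heifer library in the ipsilateral isthmus and ipsilateral ampulla. A further class II chain gene, BOLA-DQA5, was at 6.39 to 8.29 CPM in this cow and at 0 to 2.94 CPM in heifers. Non-lactating cow D, high in CD74, had 20.7 to 35.5 CPM of PTPRC and 26.2 to 40.5 CPM of summed T cell markers, with macrophage and dendritic markers at 19.6 to 32.3 CPM. Summed B cell markers were highest in lactating cow A, at 1.996 to 5.35 CPM, and at most 2.16 CPM in heifers. Epithelial markers summed to 3766 to 6306 CPM in cow C and 6194 to 10640 CPM in cow A, inside the 1419 to 38160 CPM of heifers. This sum is mostly OVGP1, with a median of 9418 CPM over the 56 libraries. The other epithelial markers had medians from 116 (PAX8) to 304 CPM (EPCAM), so that the sum does not measure the part of epithelium. The leukocyte sum is weighted to LCP1, with a median of 72.7 CPM against 12.7 CPM for PTPRC. The part of leukocytes in the class II level of cow A and of non-lactating cow D, and that of endothelium in cow C, was not tested.

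**Figure D4:**
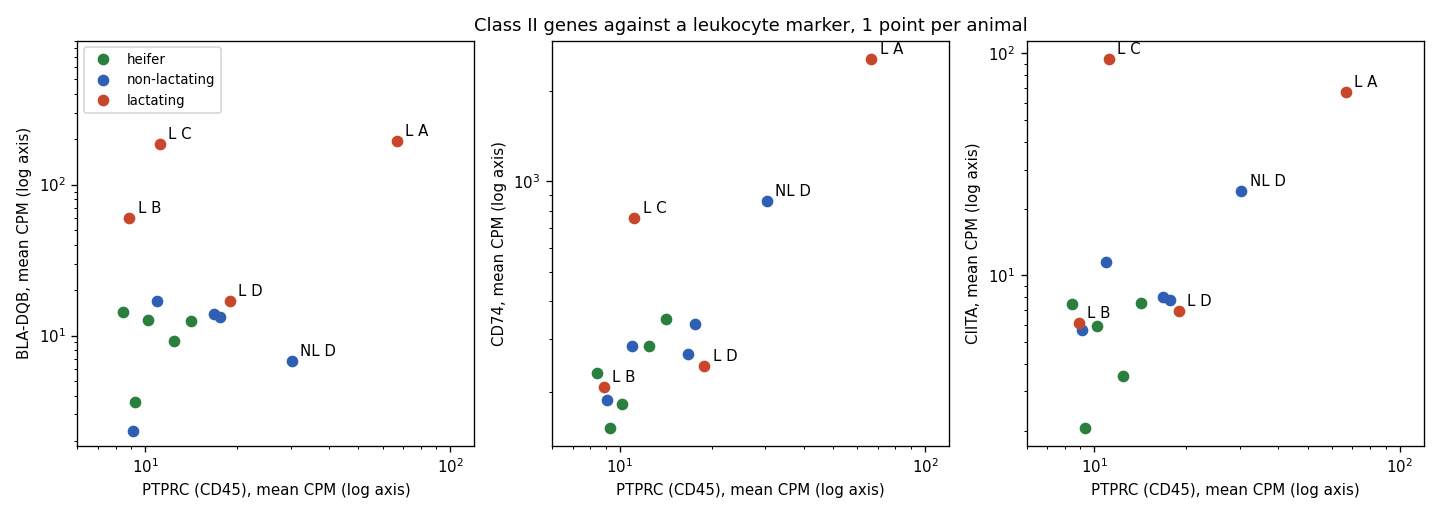
Mean CPM over 3 tissues of BLA-DQB, CD74 and CIITA (vertical log axes) against that of the leukocyte gene PTPRC (horizontal log axis), 1 point per animal, with the lactating cows and non-lactating cow D labelled. Lactating cow A has the highest PTPRC (66.7 CPM), while cow C, at 11.2 CPM of PTPRC, has 94.4 CPM of CIITA, the highest of the 14 animals.

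Interferon gamma itself (IFNG) had no count in 53 of the 56 libraries (19 of 20 in heifers, 19 of 20 in non-lactating and 15 of 16 in lactating cows). IRF1 and TAP1, which interferon can induce, were high in lactating cows A and C. IRF1, a transcription factor of the interferon response, was at 67.3 to 137 CPM in lactating cow A and 89.4 to 110.0 CPM in cow C, and at 15.1 to 60.3 CPM in heifers. TAP1, the peptide transporter of class I presentation, was at 67.8 to 103 and 68.8 to 111 CPM in these cows and at 20.8 to 49.3 CPM in heifers. The ranges of cows A and C thus lay above those of all heifer libraries for both genes. Non-lactating cow D had 34.2 to 94.4 CPM of IRF1 and 48.2 to 96.3 CPM of TAP1.

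Over the 56 libraries, 12583 named genes with a mean log2 CPM of at least 0 were ranked by their Pearson correlation with each of 2 members. The 5 nearest to CD74 were C2 (r = 0.88), IDO1 (0.88), C1S (0.87), B2M (0.85) and C1R (0.85). C2, C1S and C1R are complement components, IDO1 degrades tryptophan and B2M is the light chain of class I. The 5 nearest to BLA-DQB had lower values, DRAM1 (0.71), GBP2 (0.70), TAP1 (0.69), SP140 (0.69) and ERAP1 (0.69). GBP2 is a guanylate-binding protein, and ERAP1 trims peptides for class I. The libraries come from 14 animals and share them, so that these r values are a description.

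Of 12 further class II chain genes on the list, 6 had a row, and 1 to 5 of them passed the filter on low counts, depending on the comparison. BOLA-DQA5 was at 80.2 to 166 CPM in lactating cow A, at 3.38 to 11.0 CPM in cow C and at 0 to 2.94 CPM in heifers. BOLA-DQB was at 35.3 to 102 CPM in cow A, at 2.57 to 7.30 CPM in cow C and at 0 in 18 of 20 heifer libraries. It was at 0 in 5 of 20 non-lactating libraries. Non-lactating cow D had 5.83 to 11.4 CPM of BOLA-DQB and 3.97 to 6.89 CPM of BOLA-DQA5. Lactating cow D had 1.17 to 5.92 CPM of BOLA-DQB and 6.39 to 8.29 CPM of BOLA-DQA5. In lactating cow B, where BLA-DQB was at 48.4 to 82.0 CPM, BOLA-DQA5 and BOLA-DQB did not exceed 0.596 and 0.994 CPM. Cows A, B and C differed in which DQ genes received reads. BOLA-DOA, a chain of the DO dimer that restrains DM, was at 7.86 to 24.7 CPM in cow A and at 0.596 to 3.67 CPM in cow C.

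The isthmus was then compared with the ampulla over all 3 metabolic groups, a contrast that did not choose the genes. All 5 genes had lower fitted values in the isthmus on both sides. On the contralateral side the difference within an animal was below 0 for CIITA in 13 of 14 animals (median log2 difference -0.87), for BOLA-DMB in 13 (-0.70), for CD74 in 12 (-0.74), for BLA-DQB in 10 (-0.52) and for BOLA-DMA in 9 (-0.34). The exceptions for CD74 were lactating cow B (1.03) and non-lactating cow B (0.65). In the ipsilateral oviduct, with the mismatched libraries left out, CIITA, BOLA-DMB and CD74 were lower in the isthmus in 10 of 10 animals, BLA-DQB in 9 and BOLA-DMA in 7.

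In edgeR's test without an animal term, BOLA-DMB fell from the ampulla to the isthmus on the ipsilateral side (log2 fold change -0.90 ± 0.34, adjusted p = 0.0288), and it was the only member of 5 called, beside 51.6% of all genes (25.7% lower). On the contralateral side edgeR called 0 of 5 (CIITA, -0.97 ± 0.43, adjusted p = 0.0668), beside 45% of all genes. At an unadjusted p under 0.05, 2 genes passed on each side, beside 56.9% (ipsilateral) and 51.4% (contralateral) of all genes. DESeq2 called BOLA-DMB on the ipsilateral side (41.7% of all genes) and none on the contralateral side (36.4%). These fits treat libraries of the same animal as separate samples.

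With the animal as a replicate block in edgeR's test, CIITA (-1.04 ± 0.18, adjusted p = 7.2e-05), BOLA-DMB (-0.58 ± 0.15, adjusted p = 0.00343), CD74 (-0.54 ± 0.14, adjusted p = 0.00377) and BLA-DQB (-0.57 ± 0.19, adjusted p = 0.0207) fell in the contralateral isthmus. BOLA-DMA did not pass (-0.29 ± 0.12, adjusted p = 0.0624). This was 4 of 5 members, beside 46.9% of all genes. On the ipsilateral side the block gave 3 of 5 (CIITA, BOLA-DMB and CD74), beside 52.9% of all genes, and the block without the mismatched libraries gave 4 of 5, beside 46.4%. In that last fit BLA-DQB was at -0.79 ± 0.17 (edgeR adjusted p = 0.00121).

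The side of the CL was compared in the same way. In the isthmus all 5 genes had lower fitted values ipsilateral than contralateral to the CL over all groups. CD74 and BOLA-DMA were lower in 12 of 14 animals (median log2 differences of -0.40 and -0.42), and BLA-DQB, BOLA-DMB and CIITA in 10 of 14. Lactating cow A went the other way for all 5 genes (0.29 to 1.05). By edgeR's test without the animal term 0 of 5 passed, beside 30.6% of all genes, with BOLA-DMA nearest (-0.54 ± 0.26, adjusted p = 0.112). Unadjusted, 1 gene passed (BOLA-DMA, beside 40.6% of all genes), and DESeq2 called none (26% of all genes). With the animal as a replicate block, CD74 (-0.37 ± 0.08, adjusted p = 0.00193) and BOLA-DMA (-0.54 ± 0.17, adjusted p = 0.0204) fell by edgeR's test, which was 2 of 5 members beside 34.8% of all genes.

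**Figure D5:**
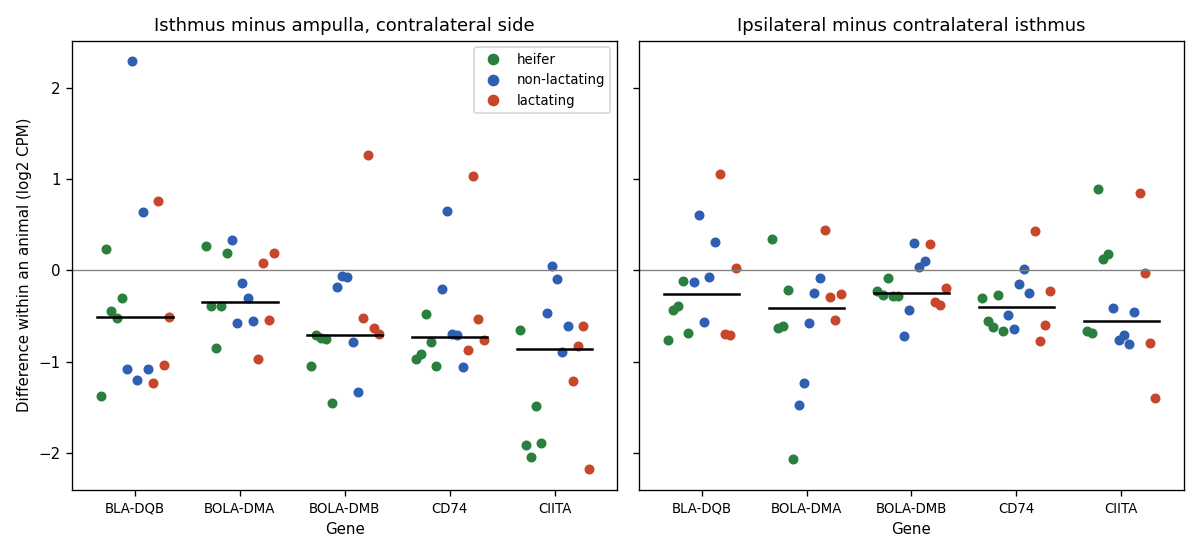
Difference in log2 CPM within each of 14 animals, for isthmus minus ampulla on the contralateral side (left) and for ipsilateral minus contralateral isthmus (right); points are animals coloured by metabolic group and black lines the medians. Most points lie below 0, with medians of -0.87 (CIITA) to -0.34 (BOLA-DMA) on the left and -0.56 (CIITA) to -0.25 (BOLA-DMB) on the right.

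Within single metabolic groups the side of the CL gave 0 of 5 calls by edgeR in either region, beside 10% of all genes in the isthmus of heifers, 5.11% in that of non-lactating cows, 0.187% in that of lactating cows, and 0, 0.0947 and 0% in the ampulla of the 3 groups. At an unadjusted p under 0.05, 1 gene passed in the ampulla of heifers, 1 in the isthmus of heifers and 1 in the isthmus of non-lactating cows, each time BOLA-DMA, beside 9.2, 27.2 and 21.5% of all genes, and DESeq2 called none. With the replicate block CD74 passed edgeR's test in the isthmus of heifers (-0.51 ± 0.10, adjusted p = 0.00893), beside 14.1% of all genes. It was lower on the ipsilateral side in all 5 heifers, by 0.27 to 0.67.

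In the ampulla over all groups, edgeR called 0 of 5 between sides (beside 5.86% of all genes). At an unadjusted p under 0.05 there were also 0 (20.9% of all genes), and DESeq2 called 0 (7.35%). BOLA-DMA passed with the replicate block (-0.66 ± 0.16, adjusted p = 0.0143, beside 8.39% of all genes) and not once the mismatched libraries were also left out (-0.51 ± 0.19, adjusted p = 0.151, beside 3.6%). Without the mismatched libraries it was lower ipsilaterally in 8 of 10 animals.

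Other genes of the pathway are given for the same contrasts by edgeR's test without the animal term. Of the 11 processing genes with a row, 10 were tested, and the lysosomal proteases CTSL and CTSS rose in the isthmus on both sides (CTSL by 1.83 ± 0.21 ipsilateral, adjusted p = 2.87e-08, and CTSS by 0.83 ± 0.18, adjusted p = 0.00028). The cathepsin inhibitor CST3 (-0.63 ± 0.14, adjusted p = 0.000488) and the lysosomal thiol reductase IFI30 (-0.71 ± 0.20, adjusted p = 0.00383) fell there. In total 3 rose and 2 fell on the ipsilateral side, and 2 rose and 3 fell on the contralateral side. These 5 of 10 genes called on each side stand beside 51.6% (ipsilateral) and 45% (contralateral) of all genes, so that the list was called about as often as all genes.

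Among the interferon gamma pathway genes, the receptor chain IFNGR2 (-0.55 ± 0.10, edgeR adjusted p = 3.32e-05) and IRF1 (-0.64 ± 0.24, edgeR adjusted p = 0.0291) fell in the contralateral isthmus, and the kinase JAK1 rose (0.19 ± 0.07, edgeR adjusted p = 0.0267). On the ipsilateral side IFNGR2 fell and JAK1 rose. The costimulatory gene ICOSLG, the only 1 of 6 tested, fell on both sides (-1.71 ± 0.16 ipsilateral, edgeR adjusted p = 3.13e-10). Of the 7 genes of class II transcription tested (the RFX and NFY subunits among them), 3 fell in the contralateral isthmus (NFYA, NFYC and RFXAP) and 1 rose in the ipsilateral isthmus (RFXANK, 0.46 ± 0.12, edgeR adjusted p = 0.00156), beside 45% of all genes called contralaterally and 51.6% ipsilaterally. Between sides of the isthmus IFNGR2 (-0.32 ± 0.07, edgeR adjusted p = 0.00182) and JAK2 fell ipsilaterally, and JAK1, NFYA and the processing genes CD63 and MARCH8 rose. Between sides of the ampulla MARCH8 and RFXAP fell. All calls of this paragraph stand beside the share of all genes called in the same comparison, which is given above for each.

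All 14 class I presentation genes were tested. In the contralateral isthmus 3 fell against the ampulla (TAPBP, PSMB10 and PSMB9, with TAPBP at -0.51 ± 0.11 and an edgeR adjusted p of 0.000593). In the ipsilateral isthmus CALR (0.80 ± 0.10, edgeR adjusted p = 1.46e-07) and PDIA3 (0.49 ± 0.08, edgeR adjusted p = 7.56e-06), chaperones with other clients as well, rose and B2M fell (-0.50 ± 0.19, edgeR adjusted p = 0.0313). On each side 3 of the 14 were called, beside 45% (contralateral) and 51.6% (ipsilateral) of all genes. Between sides of the isthmus, CALR, PDIA3, TAPBP and PSMB10 rose ipsilaterally and none fell, beside 30.6% of all genes called and 16.6% called higher. The median log2 fold change of the 14 genes was 0.16 there, beside -0.21 for the 5 class II genes and 0.00 for all genes tested.

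Cell type markers in the same fits moved in several directions. Of 4 leukocyte markers, LCP1 rose in the isthmus (1.02 ± 0.15 contralateral, edgeR adjusted p = 2.12e-06), and the medians of the 4 were -0.21 contralateral and -0.13 ipsilateral. Of the T cell markers CD4 fell (-2.16 ± 0.32 contralateral, edgeR adjusted p = 2.15e-06), and the median of the 5 tested was -0.49. Among macrophage and dendritic cell markers FLT3 rose in the ipsilateral isthmus (1.45 ± 0.39, edgeR adjusted p = 0.0025), and the medians were -0.32 contralateral and -0.24 ipsilateral. Of the 7 epithelial markers, the ciliated cell gene FOXJ1 fell (-0.56 ± 0.08 contralateral, edgeR adjusted p = 2.21e-06) and EPCAM rose (0.76 ± 0.07, edgeR adjusted p = 1.08e-10). The other epithelial markers, and those of fibroblasts, smooth muscle and endothelium, are not given here for these fits. These calls stand beside the shares of all genes called between regions, which are given above. The part of these cell types in the lower class II values of the isthmus was not tested.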

How the data were processed

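The authors trimmed the single-end reads, aligned them with TopHat2 (version 2.0.13) to the bovine genome Btau_4.6.1 and counted them per gene with htseq-count (HTSeq 0.6.1), strand-specific and in intersection-strict mode. The deposited values are whole-number counts, neither normalized nor filtered, from 1901454 to 6836850 per library. The 5 summary lines at the end of each column were not counted as genes, and they served for the share of alignments to several places. Column names gave the group and, by their number, the animal. No column was left unused.

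R 4.3.3, edgeR 4.0.16 and limma 3.58.1 were used, with DESeq2 1.42.0, the tool of the study, as an alternative. The study's methods do not state a term for the animal, and the main fits had none. Genes were kept by filterByExpr with a minimum count of 10, scaled by TMM and tested by edgeR's quasi-likelihood F test, with Benjamini-Hochberg adjusted p-values called under 0.05. All 5 members passed the filter in each of the 22 comparisons. The SE of a log2 fold change was its size over the square root of F. Log2 CPM used a prior count of 2. Comparisons of sides and regions over all groups had metabolic group as a term. The p-values measure the spread between libraries. Counting error alone makes values from under 10 counts imprecise.

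The same number in 2 columns marks the same animal, so that the numbers pair libraries. For each library, log2 CPM was centred on the mean of its tissue over all metabolic groups. It was then correlated, over 200 genes, with the mean of the other libraries of its number outside the ipsilateral ampulla. Differences between metabolic groups thus remain in these correlations. Of the 56 libraries 52 matched their own number best. The remaining 4 are named in the text, and fits without them and fits with the animal as a block are given beside the results.

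The members, lists and tests were chosen with earlier results of these data known. The genes named were all members, the list genes called between sides or regions (at most 4 per list with the smallest p), the 5 genes with the highest Pearson correlation with BLA-DQB and with CD74, and, named after their values were seen, IFNG, PTPRC and the other class II chains. Of 115 listed symbols 99 had a row. The fit was tested on simulated data. Of 200 genes given a simulated log2 fold change of 1, 47.7% of those tested were recovered for the ipsilateral isthmus of lactating cows against that of heifers, and 83.4% for isthmus against ampulla on the contralateral side. The genes were drawn at random and the simulated libraries were independent, with no animal effect. These rates are thus not those of the class II genes, whose spread between animals was large. The genome build of the available annotation differs from that of the counts, so that no coordinates or sequences are given. Some results for listed genes are not reported here.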

Additional observations from a re-analysis of the deposited data

Results flagged for a closer look

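Dixon's test was applied to the CPM of the 5 genes in each of the 12 conditions, 60 groups of 4 or 5 libraries. A single library stood apart in 7 of them. The rate of about 1 in 20 by chance holds for independent groups of normally distributed values. CPM are skewed, and the 60 groups share animals and genes that vary together, so that these 7 are a description. Of these 7 libraries 4 carried the number of non-lactating cow D. They were BOLA-DMA in the ipsilateral ampulla (24.4 CPM, next highest 12.04), CD74 in the contralateral isthmus (707 CPM, next 297.5), CD74 in the ipsilateral isthmus (715 CPM, next 216.5) and CIITA in the contralateral ampulla (39.4 CPM, next 15.3). Lactating cow A stood apart for CD74 in the ipsilateral isthmus (2458 CPM, next 482). In heifers, heifer E stood apart for BOLA-DMA in the contralateral isthmus (22.8 CPM, next 10.6) and heifer D for CD74 in the ipsilateral ampulla (473 CPM, next 169). BLA-DQB had no such library in any condition, and lactating cows A and C, both high, mask each other in groups of 4. In the 60 comparisons of region and side differences between 2 metabolic groups, none had all animals of one group on one side of 0 and all of the other group on the opposite side.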

How the results depend on the processing

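RLE size factors changed none of the 22 counts of called members. For lactating cows against heifers, DESeq2 called 1 member in the ipsilateral ampulla, 2 in the ipsilateral isthmus and 1 in the contralateral isthmus, and for lactating against non-lactating cows 1 in each isthmus tissue, where edgeR called 0. Without a filter on low counts edgeR called 1 member in each ipsilateral tissue for lactating cows against heifers, and 1 in the contralateral ampulla for lactating against non-lactating cows. The cause was not tested.

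With the animal as a replicate block, the number of members called went from 0 to 1 between sides of the ampulla and to 2 between sides of the isthmus over all groups, from 0 to 1 in the isthmus of heifers, from 1 to 3 between regions ipsilaterally and from 0 to 4 contralaterally. The block changed no other count. Without the mismatched libraries the ipsilateral region comparison gave 3 members, and 4 with the replicate block, and the side difference in the ampulla turned sign for BLA-DQB (-0.16 to 0.068) and CIITA (-0.33 to 0.022), neither called.

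When each animal or library was left out in turn, the counts ranged from 0 to 1 between lactating cows and heifers and between lactating and non-lactating cows in the contralateral isthmus (1 without lactating cow D), from 0 to 1 between sides of the isthmus (1 without lactating cow A), from 0 to 3 between regions ipsilaterally (0 without heifer A, heifer E or lactating cow C, 3 without lactating cow D) and from 0 to 2 contralaterally (2 without lactating cow B). The ampulla side difference of BOLA-DMB ranged from -0.043 (without lactating cow B) to 0.12 (without heifer E). With all 4 tissues the animal shares of the spread were 31.6 to 61.1%. With 1 animal left out they ranged from 20.2 to 39.4% for BLA-DQB, 28.9 to 49.0% for BOLA-DMA, 44.9 to 66.7% for BOLA-DMB, 51.1 to 68.3% for CD74 and 38.7 to 56.9% for CIITA. With 4 lactating cows of which 2 were high, group differences of these genes are imprecise, and low CIITA and BLA-DQB values rest on few counts.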
